A study of Mus musculus with 48 samples.

Results

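Arntl, Clock and Npas2 encode the transcriptional activators of the circadian clock, and their daily expression was followed in epidermal stem cells (EpSCs) of young and aged mice. A gene's members are the array probe sets that carry its symbol and no other symbol. This gave 3 genes of 17097 and 8 probe sets of 28898, with 2 probe sets for Arntl, 4 for Clock and 2 for Npas2. The main probe set of a gene is the one whose mean over the 48 arrays is highest.

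The EpSCs were isolated from the epidermis of wild type female mice of the strain labelled C57B6/J, and no transgene or treatment is named in the labels. The young group was 8 weeks old and the aged group between 102 and 116 weeks. Sampling ran from ZT0 to ZT20 in steps of 4 h, with 4 mice per age and time, which gives 12 groups, 24 arrays per age and 48 in all. ZT counts hours from lights on by convention; the light schedule is not given in the sources used here. Each array carries amplified RNA of a cell population, so fewer cells of a type and less RNA per cell cannot be told apart.

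In the mammalian clock, BMAL1, the product of Arntl, pairs with CLOCK or with its relative NPAS2. The pair binds E-boxes and switches on the Per and Cry repressors, the nuclear receptors REV-ERB and the output factor Dbp. PER and CRY proteins inhibit the pair, while REV-ERB repressors and ROR activators compete at RORE elements, which are known in the regulatory DNA of Arntl. In epidermis this loop is known to time the daily programme of keratinocyte progenitors.

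Arntl lies on chromosome 7 from 113178471 to 113314126, Clock on chromosome 5 from 76209868 to 76305603, and Npas2 on chromosome 1 from 39193702 to 39363240, in the mouse build GRCm38.p6. The 250 bases before a transcription start of each gene were read from RefSeq and are shown because the genes differ in daily amplitude. Capitals mark the run AAAGTAGGT, which was added to the search after the sequences had been seen. For Arntl the window precedes the second annotated start. The window before its first annotated start did not hold the run, which began 36 bases after that start.
Arntl chr7:113207261-113207510, plus strand: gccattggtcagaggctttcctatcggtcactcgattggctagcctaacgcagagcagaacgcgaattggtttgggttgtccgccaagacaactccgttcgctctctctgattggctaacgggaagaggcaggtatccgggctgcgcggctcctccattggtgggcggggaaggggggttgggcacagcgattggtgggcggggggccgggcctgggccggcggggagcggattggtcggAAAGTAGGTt
Npas2 chr1:39194022-39194271, plus strand: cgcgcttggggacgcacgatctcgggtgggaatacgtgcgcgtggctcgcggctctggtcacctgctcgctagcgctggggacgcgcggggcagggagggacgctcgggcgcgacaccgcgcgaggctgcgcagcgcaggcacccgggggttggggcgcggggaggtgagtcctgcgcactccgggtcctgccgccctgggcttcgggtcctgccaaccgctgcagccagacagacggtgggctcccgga
Clock chr5:76304793-76305042, minus strand, first annotated start: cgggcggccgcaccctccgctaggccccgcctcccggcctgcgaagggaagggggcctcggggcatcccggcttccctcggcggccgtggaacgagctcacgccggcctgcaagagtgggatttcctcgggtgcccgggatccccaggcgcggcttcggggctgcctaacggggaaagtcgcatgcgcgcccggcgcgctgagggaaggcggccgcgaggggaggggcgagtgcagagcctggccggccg
The Arntl window has 62.8% GC, that of Npas2 74.8% and that of Clock 76.4%, against a median of 52.4% over 32851 promoter windows.

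Exact letters were searched on both strands. The E-box CACGTG, found in 6.02% of all windows, the REV-ERB and ROR core motif AGGTCA (14.0%), its longer forms NNTAGGTCA (2.21%) and NNTGGGTCA (3.23%), both of them counted apart from AGGTCA although the first contains it, and the D-box TTANNTAA (5.43%) had no match in these 3 windows. The window before the third annotated start of Clock (chr5:76303503-76303752) held AGGTCA once, on the opposite strand, at position -119 from that start. Around the second start of Arntl the run AAAGTAGGT stood at 2 places, 36 bases apart, and both are shown because only the second continues into AGGTCA.
Arntl chr7:113207495-113207520, plus strand: ggtcggAAAGTAGGTtagtggtgcga
Arntl chr7:113207531-113207556, plus strand: aggcagAAAGTAGGTcagggacggag
The run begins 10 bases before the second start in the upper line and 26 bases after it in the lower one. It occurs in 0.164% of the 250-base windows, and in 0.183% of windows that also take the 50 bases after the start. A match of letters is a description of the sequence; binding was not measured here.

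The values are log2 probe set summaries. Array medians lay between 4.78 and 5.04, and the lowest correlation between arrays was 0.963. Of the marker genes of basal keratinocytes, all 8 were above the limit for dim genes (3.96), and the mean of the list was 11.49 ± 0.04 for the young and 11.54 ± 0.07 for the aged (SD over 24 arrays). Markers of suprabasal, differentiating keratinocytes were high too: Krt10 (11.72 and 11.69), Krt1 (11.64 and 11.71), Sbsn (11.28 and 11.38) and Krtdap (9.59 and 9.60). Lor (6.98 and 6.23) and Ivl (6.32 and 6.46) were lower, and Flg (3.02 and 3.07) was under the limit. The mean of these 7 genes was 8.65 ± 0.18 in young and 8.59 ± 0.15 in aged arrays. Of the 5 bulge markers, Cd34 (3.28 and 3.33) and Lgr5 (3.53 and 3.91) were under that limit in mean at both ages, and Sox9 (9.56 and 9.60), Nfatc1 (9.36 and 9.45) and Lhx2 (4.36 and 4.07) above it. Of the 6 Langerhans and myeloid markers, Ptprc (3.27 and 3.32) and Cd207 were under it, and H2-Ab1 (6.97 and 7.07), Cd74, Csf1r and Cd68 above it. The T cell list of 4 genes had a mean of 5.54 ± 0.19 in young and 5.86 ± 0.29 in aged arrays, with overlapping ranges of 5.17 to 5.90 and 5.43 to 6.73. Thy1 (9.09 and 9.74) was by far its highest gene. Cd3d (4.81 and 4.83), Cd3e (4.05 and 4.37) and Cd3g (4.23 and 4.50) lay not far above the limit. The 4 lowest array weights were those of mouse 1 of aged ZT12 (0.356), mouse 1 of young ZT4 (0.388), and mice 2 and 3 of young ZT0 (0.393 and 0.467).

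Daily rhythm was tested with a 24 h cosine in each age (limma F test, Benjamini-Hochberg adjustment over all features). Among the main probe sets, 1 of 3 passed in young mice, that of Npas2, and 2 of 3 in aged mice, those of Npas2 and Arntl. Over all 12823 genes tested, 6.27% passed in young and 1.36% in aged mice. Among all probe sets of the activators, 3 of 8 passed in young and 4 of 8 in aged mice, against 3.72% and 0.931% of 28898 probe sets. These were both probe sets of Npas2 at both ages, the lower probe set of Arntl at both ages, and the main probe set of Arntl in aged mice. Clock had none.

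Npas2, the relative of CLOCK that can take its place beside BMAL1, had the largest daily swing of the 3 genes in its lower probe set, 1421037_PM_at. In young mice it read 8.07, 7.85, 8.02 and 8.30 at ZT0, 7.64, 7.78, 7.71 and 7.64 at ZT4, and 5.20, 4.65, 5.25 and 5.71 at ZT8. The values were 4.98, 4.57, 5.37 and 4.75 at ZT12, 6.63, 6.91, 7.14 and 6.71 at ZT16, and 7.55, 7.45, 7.70 and 7.92 at ZT20. ZT8 and ZT12 were low and every mouse of the other times was above them.

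In aged mice the same probe set read 7.95, 7.84, 7.25 and 7.73 at ZT0, 7.47, 6.64, 7.88 and 7.08 at ZT4, and 5.86, 5.33, 6.00 and 5.96 at ZT8. It read 4.33, 6.08, 4.87 and 5.45 at ZT12, 6.84, 6.62, 6.64 and 5.66 at ZT16, and 7.28, 8.07, 7.85 and 6.45 at ZT20. The trough was again at ZT12, the mice of ZT12 and ZT20 were widely spread, and the ranges of the ages overlapped at all 6 times. The mean at ZT0 was 8.84 times that at ZT12 in young and 5.70 times in aged mice, with the ranges of ZT0 and ZT12 apart at both ages.

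The fitted amplitude, from the mean to the peak on the log2 scale, was 1.66 ± 0.14 in young and 1.27 ± 0.14 in aged mice for 1421037_PM_at (SE, n = 24 arrays each). The limma adjusted p was 4.30e-11 in young and 2.16e-07 in aged mice. This was the 5th largest amplitude of 28898 probe sets in young and the 4th largest in aged mice. The fitted peak was 10.0 and 5.79 times the trough and fell at ZT22.92 ± 0.33 in young and ZT23.30 ± 0.43 in aged mice. Its course in young mice was not a plain cosine: a 12 h component of 0.54 passed beside the 24 h one (limma, adjusted p = 0.0129; 2.56% of probe sets passed), while in aged mice the 12 h component was 0.24 (adjusted p = 0.478, 4.07% passed). Whether this component differed between the ages was not tested.

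The main probe set of Npas2, 1421036_PM_at, moved with the same timing over a smaller range. In young mice it read 7.61, 8.07, 7.56 and 7.62 at ZT0, 7.71, 7.42, 7.59 and 7.59 at ZT4, and 6.86, 6.57, 6.80 and 6.78 at ZT8. At the later times it read 6.21, 6.50, 6.71 and 6.63 at ZT12, 7.16, 7.18, 7.25 and 7.17 at ZT16, and 7.50, 7.41, 7.49 and 7.76 at ZT20. The 4 mice of ZT16 lay close together, between the low group of ZT8 and ZT12 and the high group of ZT20, ZT0 and ZT4.

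Aged mice gave 7.74, 7.40, 7.67 and 7.51 at ZT0, 7.49, 7.05, 7.68 and 7.35 at ZT4, and 6.93, 6.71, 6.73 and 6.92 at ZT8. They gave 6.56, 6.51, 6.93 and 6.83 at ZT12, 7.06, 7.20, 7.15 and 6.92 at ZT16, and 7.59, 7.22, 7.38 and 6.94 at ZT20. The order of the time means was the same at both ages, from ZT0 through ZT4, ZT20, ZT16 and ZT8 down to ZT12. ZT0 was 2.30 times ZT12 in young and 1.84 times in aged mice, with ranges apart.

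The amplitude of the main Npas2 probe set was 0.61 ± 0.06 in young and 0.42 ± 0.06 in aged mice (SE; limma, adjusted p = 7.19e-10 and 2.38e-05). The lower probe set exceeded it by 1.06 (95% confidence interval 0.81 to 1.30) in young and by 0.84 (0.60 to 1.09) in aged mice. Their peaks differed by -0.35 h (-1.01 to 0.31) and -0.32 h (-1.24 to 0.60), intervals that include 0. Both probe sets had a smaller fitted amplitude in aged mice, by -0.19 (-0.35 to -0.02) and -0.40 (-0.80 to 0.01). The test of the whole rhythm between the ages did not pass for either (limma, adjusted p = 0.689 over genes and 0.812 over probe sets).

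**Figure D1:**
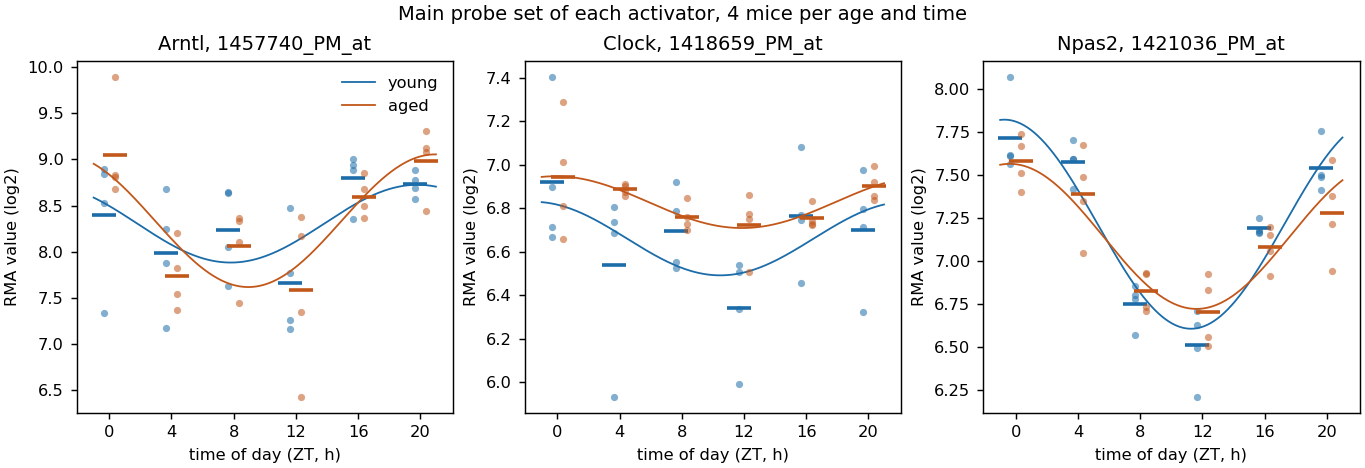
Log2 value of the main probe set of Arntl, Clock and Npas2 (vertical axes, each with its own range) against time of day in hours (horizontal axes). Points are mice, 4 per age and time, dashes are group means and curves are the fitted 24 h cosines in young (blue) and aged (orange) mice. Npas2 falls to its lowest means at ZT12 at both ages (6.51 and 6.71), and the scatter of Arntl is widest at aged ZT12, from 6.43 to 8.38.

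Arntl encodes BMAL1, the partner that both CLOCK and NPAS2 need. Its main probe set, 1457740_PM_at, varied strongly between mice of a group. In young mice it read 8.84, 8.90, 7.34 and 8.52 at ZT0, 7.17, 8.68, 7.88 and 8.24 at ZT4, and 8.63, 7.63, 8.64 and 8.05 at ZT8. It read 7.77, 7.16, 8.48 and 7.26 at ZT12, 8.94, 8.35, 9.01 and 8.89 at ZT16, and 8.89, 8.57, 8.77 and 8.69 at ZT20. ZT16 and ZT20 were high and tight, and the highest and the lowest time, ZT16 and ZT12, still overlapped in range.

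The aged values of that probe set were 8.81, 8.83, 9.89 and 8.68 at ZT0, 7.37, 7.54, 8.21 and 7.82 at ZT4, and 8.33, 8.10, 8.37 and 7.45 at ZT8. They were 6.43, 7.35, 8.38 and 8.17 at ZT12, 8.36, 8.68, 8.85 and 8.50 at ZT16, and 9.09, 9.31, 9.12 and 8.44 at ZT20. In aged mice all 4 values of ZT0 lay above all 4 of ZT12, and the mean of ZT0 was 2.77 times that of ZT12. The highest value of ZT0 came from a mouse that stood apart from its group, while the mice of ZT12 were spread over the widest range.

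The amplitude of 1457740_PM_at was 0.42 ± 0.15 in young and 0.72 ± 0.15 in aged mice (SE), with peaks at ZT19.81 ± 1.40 and ZT20.94 ± 0.82. The difference in amplitude, aged minus young, was 0.30 (95% confidence interval -0.14 to 0.74), and the shift of the peak was 1.13 h (-2.13 to 4.40). In the fit over genes the young rhythm did not pass and the aged one did (limma, adjusted p = 0.189 and 0.0188). Without mouse 3 of aged ZT0 the aged amplitude was 0.65 (adjusted p = 0.0450), and without mouse 1 of aged ZT12 it was 0.63 (adjusted p = 0.0263). With separate means for the 6 times instead of a cosine, the daily variation again passed in aged but not in young mice (limma, adjusted p = 0.00436 and 0.0763; 8.36% and 17.5% of genes passed).

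The other Arntl probe set, 1425099_PM_a_at, separated the times more cleanly. In young mice it read 8.03, 8.61, 7.81 and 7.72 at ZT0, 7.21, 7.44, 7.28 and 7.44 at ZT4, and 6.94, 6.70, 6.74 and 7.21 at ZT8. It read 6.45, 5.49, 6.86 and 6.80 at ZT12, 7.00, 7.68, 8.12 and 7.73 at ZT16, and 8.07, 7.93, 7.92 and 8.19 at ZT20. All mice of ZT0 and ZT20 were above all mice of ZT4, ZT8 and ZT12.

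In aged mice the values were 8.09, 7.91, 7.83 and 8.04 at ZT0, 7.39, 7.47, 7.55 and 7.21 at ZT4, and 6.98, 6.80, 7.43 and 7.13 at ZT8. They were 5.74, 7.53, 7.28 and 7.42 at ZT12, 7.31, 7.60, 7.25 and 7.13 at ZT16, and 7.87, 7.74, 8.20 and 7.78 at ZT20. Here too ZT0 and ZT20 were above every mouse of the other times, and mouse 1 of ZT12 lay far under the other 3 mice of its group. The same mouse had the lowest aged value of the main Arntl probe set and of Npas2 1421037_PM_at, and the lowest weight of all arrays.

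For 1425099_PM_a_at the amplitude was 0.80 ± 0.11 in young and 0.52 ± 0.11 in aged mice (SE), and both rhythms passed (limma, adjusted p = 5.41e-06 and 0.0141). Its peaks were at ZT21.95 ± 0.51 and ZT22.40 ± 0.78. The difference in amplitude was -0.28 (95% confidence interval -0.58 to 0.02), the opposite sign to that of the main probe set, and both intervals include 0. The young amplitude of 1425099_PM_a_at exceeded that of the main probe set by 0.38 (0.09 to 0.66), and in aged mice the difference was -0.20 (-0.48 to 0.08). With the mean of the 2 probe sets as the value of the gene, the amplitudes were 0.59 and 0.61, and both rhythms passed (limma, adjusted p = 0.00200 and 0.00309). Whether Arntl is called rhythmic in young mice therefore turned on the probe set.

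**Figure D2:**
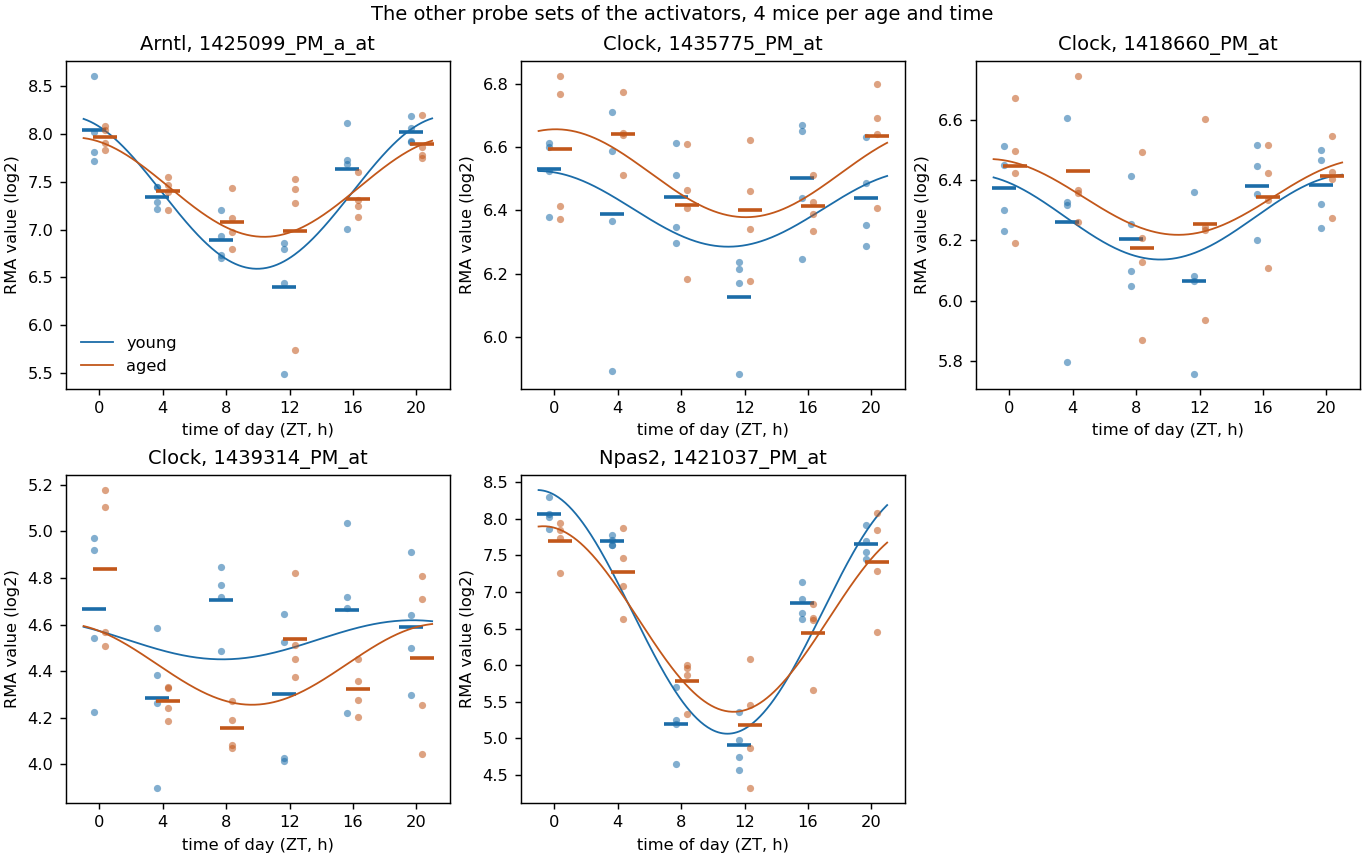
Log2 values (vertical axes, each with its own range) of the 5 other probe sets against time of day in hours (horizontal axes), with points for mice, dashes for group means and curves for the fitted cosines, young in blue and aged in orange. Npas2 1421037_PM_at spans the widest range, with means from 8.06 at ZT0 to 4.92 at ZT12 in young mice. The 3 Clock probe sets show shallow fitted curves, with amplitudes from 0.08 to 0.17.

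Clock encodes the partner of BMAL1 that carries histone acetyltransferase activity. The main probe set, 1418659_PM_at, read 6.67, 7.40, 6.71 and 6.90 at young ZT0, 5.93, 6.74, 6.80 and 6.68 at ZT4, and 6.53, 6.92, 6.55 and 6.79 at ZT8. It read 6.54, 5.99, 6.34 and 6.51 at young ZT12, 6.46, 6.74, 7.08 and 6.77 at ZT16, and 6.71, 6.98, 6.80 and 6.32 at ZT20. ZT0 was high and ZT12 low with ranges apart, a ratio of 1.49, and the other times lay between them.

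Aged mice read 7.29, 6.81, 6.66 and 7.01 at ZT0, 6.91, 6.88, 6.90 and 6.86 at ZT4, and 6.73, 6.70, 6.76 and 6.85 at ZT8. They read 6.51, 6.86, 6.77 and 6.75 at ZT12, 6.83, 6.73, 6.73 and 6.74 at ZT16, and 6.86, 6.92, 6.99 and 6.84 at ZT20. The aged groups were narrow except at ZT0 and ZT12, and ZT0 was 1.16 times ZT12 with overlapping ranges. The 4 aged mice of ZT4 lay above the 4 young ones, and the ages overlapped at the other 5 times.

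The amplitude of 1418659_PM_at was 0.17 ± 0.07 in young and 0.12 ± 0.07 in aged mice (SE), and neither rhythm passed (limma, adjusted p = 0.239 and 0.697). For comparison, the median amplitude of all genes tested was 0.09 and 0.08, and 90% of genes were under 0.23 and 0.19. The other Clock probe sets had amplitudes of 0.12 and 0.14 (1435775_PM_at), 0.14 and 0.13 (1418660_PM_at), and 0.08 and 0.17 (1439314_PM_at), in young and aged mice. None of their rhythms passed (limma, adjusted p from 0.329 to 0.861). At unadjusted p under 0.05, the main probe set would have passed in young mice and 1435775_PM_at in aged mice. The fitted peaks of all 4 Clock probe sets nevertheless fell between ZT19.77 and ZT0.08 at both ages, with standard errors from 1.50 to 3.91 h.

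The group means of the other Clock probe sets moved over differing ranges. For 1435775_PM_at they lay between 6.13 ± 0.16 (ZT12) and 6.53 ± 0.11 (ZT0) in young and between 6.40 ± 0.19 (ZT12) and 6.64 ± 0.11 (ZT4) in aged mice (SD, n = 4). The mice of its highest and lowest times were apart in young and overlapped in aged mice. For 1418660_PM_at they lay between 6.07 ± 0.25 (ZT12) and 6.38 ± 0.12 (ZT20) in young and between 6.18 ± 0.26 (ZT8) and 6.45 ± 0.20 (ZT0) in aged mice. The lowest young mean was at ZT12 in these probe sets as in the main one. For 1439314_PM_at, the dimmest, the young means were between 4.28 ± 0.29 (ZT4) and 4.71 ± 0.16 (ZT8) and the aged ones between 4.15 ± 0.09 (ZT8) and 4.84 ± 0.35 (ZT0). In aged mice its ZT0 was 1.61 times ZT8 with ranges apart, and in young mice the highest and lowest times overlapped. At ZT8 all young mice were above all aged ones in that probe set, the reverse of the main probe set at ZT4.

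**Figure D3:**
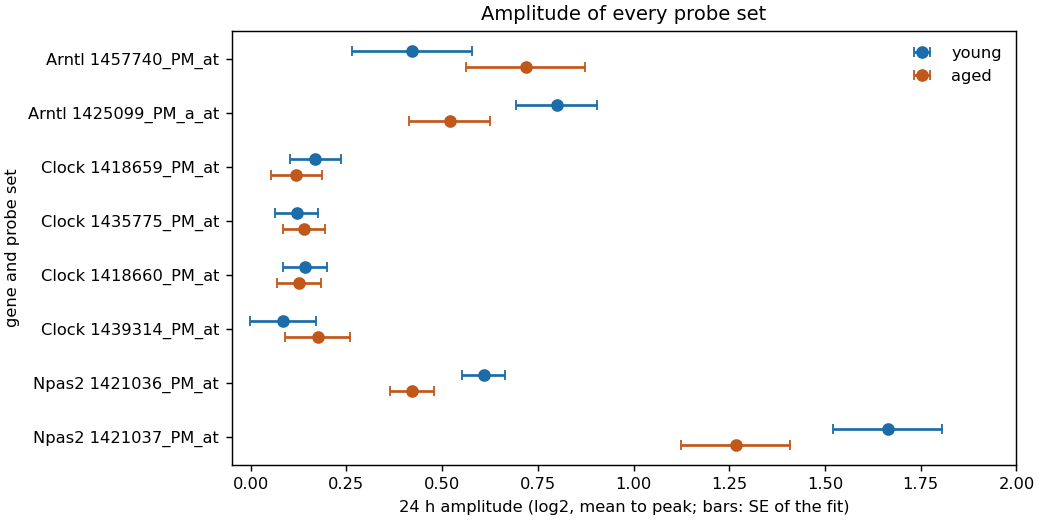
Fitted 24 h amplitude in log2 units, from the mean to the peak (horizontal axis), for the 8 probe sets (vertical axis), young in blue and aged in orange; bars are standard errors of the fit. Npas2 1421037_PM_at stands at 1.66 and 1.27, the Arntl probe sets lie between 0.42 and 0.80, and the 4 Clock probe sets lie at 0.17 or less.

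The contrast of ZT12 with ZT0 was fitted with a mean for each group. Npas2 fell by 1.20 ± 0.13 in young and by 0.88 ± 0.13 in aged mice (main probe set, log2, SE; limma, adjusted p = 1.67e-08 and 3.49e-05). The main Clock probe set fell by 0.58 ± 0.16 in young mice (adjusted p = 0.0296), and its difference in aged mice was -0.22 ± 0.16 (adjusted p = 0.584). In young mice the other Clock probe sets differed by -0.40, -0.31 and -0.36 (1435775_PM_at, 1418660_PM_at and 1439314_PM_at), and none of these passed (limma, adjusted p = 0.102, 0.346 and 0.387). The main Arntl probe set fell by 1.47 ± 0.35 in aged mice (adjusted p = 0.0133), and its difference in young mice was -0.73 ± 0.35 (adjusted p = 0.313). Of all genes, 1.75% were lower at ZT12 than at ZT0 in young and 0.788% in aged mice. That these contrasts passed at 1 age and not at the other is not a test of a difference between the ages.

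The Clock and Arntl contrasts rested on few mice. For Clock in young mice, the difference was -0.42 without mouse 2 of ZT0 (limma, adjusted p = 0.146), -0.58 without mouse 4 of ZT0 (0.0583), -0.46 without mouse 2 of ZT12 (0.155) and -0.57 without mouse 3 of ZT12 (0.0600). For Arntl in aged mice it was -1.19 without mouse 3 of ZT0 (limma, adjusted p = 0.133), -1.09 without mouse 1 of ZT12 (0.0502) and -1.39 without mouse 2 of ZT12 (0.0680). In the lower Arntl probe set the same contrast was -1.64 ± 0.26 in young and -0.98 ± 0.26 in aged mice, and both passed over probe sets (limma, adjusted p = 7.05e-05 and 0.0386; 1.3% and 0.682% of probe sets were lower).

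The other contrasts over 12 h gave Npas2 alone among the main probe sets. It was higher at ZT20 than at ZT8 by 0.79 ± 0.13 in young mice (limma, adjusted p = 0.000361; 0.702% of genes were higher), with 0.46 ± 0.13 in aged mice (adjusted p = 0.250; 0.0312%). It was lower at ZT16 than at ZT4 in young mice, by -0.39 ± 0.13 (adjusted p = 0.0358; 11.2% of genes were lower). That last call was lost without any of 7 of the 8 mice, with differences from -0.41 to -0.34 (adjusted p from 0.0554 to 0.120), and kept without mouse 2 of ZT4. Among the lower probe sets, Npas2 1421037_PM_at was higher at ZT20 than at ZT8 by 2.45 ± 0.29 in young and 1.62 ± 0.29 in aged mice, and both passed (limma, adjusted p = 6.91e-07 and 0.00504; 0.391% and 0.0173% of probe sets were higher). Arntl 1425099_PM_a_at was higher by 1.13 ± 0.26 in young mice (limma, adjusted p = 0.0199), with 0.81 ± 0.26 in aged mice (adjusted p = 0.521).

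Neighbours in the order of the time means were compared by a 2-sided exact permutation test of 4 mice against 4, which cannot give less than 0.0286. Of 30 neighbouring pairs over the main probe sets and ages, 3 reached that value and none passed after Benjamini-Hochberg adjustment (lowest 0.286). At least 18 of the 30 would have had to reach the smallest p for any to pass, so the adjusted values say nothing about the order. The 3 were ZT20 over ZT16 and ZT16 over ZT8 for Npas2 in young mice, and ZT4 over ZT8 for Clock in aged mice. For Arntl the order ran ZT16, ZT20, ZT0, ZT8, ZT4, ZT12 in young and ZT0, ZT20, ZT16, ZT8, ZT4, ZT12 in aged mice, with no neighbours apart. The mean of ZT12 was the lowest in every main probe set at both ages, and its range overlapped that of the next time in all 6 cases. Neither the highest nor the lowest time was told apart from its neighbour.

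Peak times of the activators were compared on the same arrays, with errors that take in their shared residuals. The main Npas2 probe set peaked after that of Arntl by 3.46 h (95% confidence interval 0.66 to 6.26) in young and 2.68 h (0.93 to 4.42) in aged mice. The young rhythm of the main Arntl probe set did not pass (limma, adjusted p = 0.189), so the young gap rests on a fitted peak of a rhythm that was not called. Between the lower probe sets, Arntl 1425099_PM_a_at and Npas2 1421037_PM_at, the gap was 0.97 h (0.02 to 1.91) and 0.90 h (-0.52 to 2.33). The estimated gap was smaller between the lower probe sets, but the intervals overlapped and a difference between the gaps was not tested. Arntl 1425099_PM_a_at peaked after the main Arntl probe set by 2.14 h (-0.40 to 4.68) in young and 1.46 h (-0.16 to 3.07) in aged mice, intervals that include 0. No Clock rhythm passed at either age, so its fitted peaks are given as a description only. Clock peaked 2.67 h (-1.04 to 6.38) and 2.93 h (-1.38 to 7.23) after the main Arntl probe set, and Npas2 differed from Clock by 0.79 h (-2.31 to 3.89) and -0.25 h (-4.66 to 4.16), none of which excludes 0.

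**Figure D4:**
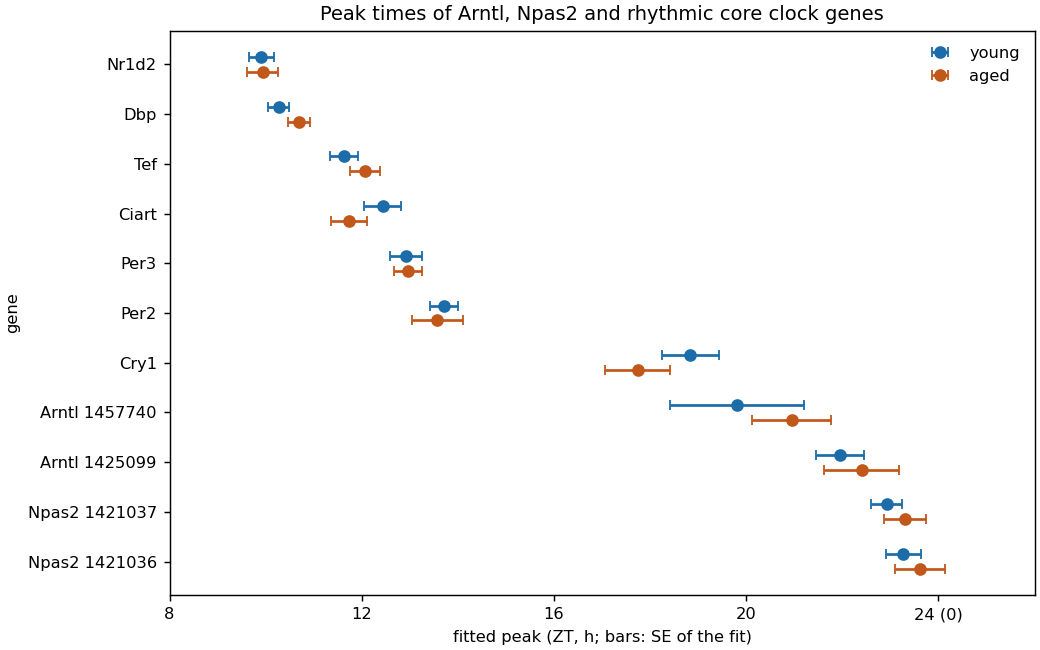
Fitted peak time in hours (horizontal axis, starting at ZT8) of the 2 probe sets each of Arntl and Npas2 and of the core clock genes rhythmic at both ages (vertical axis), young in blue and aged in orange; bars are standard errors. Npas2 lies near ZT23, the Arntl probe sets between ZT19.81 and ZT22.40, and Dbp and Nr1d2 on the opposite side near ZT10.

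The ages were compared in mean level over the day. Arntl differed by 0.03 ± 0.15 (main probe set, log2, aged minus young, SE) and Npas2 by -0.07 ± 0.06, and neither passed (limma, adjusted p = 0.919 and 0.433). Clock was 0.17 ± 0.07 higher in aged mice (95% confidence interval 0.03 to 0.30, 1.12 times), and this missed the threshold (limma, adjusted p = 0.0716). Of all genes 9.89% were higher and 8.73% lower in aged mice. The other Clock probe sets differed by 0.11 ± 0.05, 0.07 ± 0.06 and -0.10 ± 0.09 (1435775_PM_at, 1418660_PM_at and 1439314_PM_at; limma, adjusted p = 0.175, 0.497 and 0.469), so the 4 did not share a sign. The mean of the 4 differed by 0.06 (limma, adjusted p = 0.451). Of all probe sets 8.68% were higher and 6.23% lower.

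The Clock level lay near the threshold. It passed without mouse 2 of young ZT0 (0.20; limma, adjusted p = 0.0211), without mouse 3 of young ZT16 (0.19, 0.0351) and without mouse 2 of young ZT8 (0.19, 0.0410). The T cell list was higher in aged arrays by the values given above. With the scores of 5 marker lists, named below, as covariates the Clock difference was 0.16 (limma, adjusted p = 0.146). Leaving out the 4 arrays of lowest weight, a step chosen after seeing the data, gave 0.16 (adjusted p = 0.0364).

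At single times of day, none of 18 contrasts between the ages passed for the main probe sets (limma; lowest adjusted p = 0.185), and 2 had an unadjusted p under 0.05. Those were Clock at ZT4 (0.35 ± 0.16) and at ZT12 (0.38 ± 0.16). Over all 8 probe sets none of 48 contrasts passed (limma, lowest adjusted p = 0.132), and 6 had an unadjusted p under 0.05. Besides those 2 they were Clock 1439314_PM_at at ZT8 (-0.55 ± 0.18), the opposite sign, and Clock 1435775_PM_at at ZT12 (0.27 ± 0.13). The others were Arntl 1425099_PM_a_at at ZT12 (0.59 ± 0.26) and Npas2 1421036_PM_at at ZT20 (-0.26 ± 0.13). From ZT0 to ZT20, the share of all genes that were higher in aged mice was 2.73%, 3.84%, 1.79%, 0.819%, 1.83% and 0.99%. The share that were lower was 2.46%, 4.37%, 0.359%, 0.491%, 1.47% and 0.367%. In the 24 h cosine fit the difference in rhythm between the ages passed in 0 of 8 probe sets (limma), also 0 of 8 at unadjusted p under 0.05. Of all genes 0% passed, with 982 of 12823 at unadjusted p under 0.05. In that comparison the 95% intervals of the peak shift were -2.13 to 4.40 h for Arntl and -0.92 to 1.63 h for Npas2 (main probe sets). With a 12 h component added, the 24 h difference had unadjusted p = 0.0379 for Npas2 1421036_PM_at and 0.0481 for 1421037_PM_at (limma, adjusted p = 0.550 and 0.583). With time as a factor, the age by time term had unadjusted p = 0.0271 for Clock 1439314_PM_at (limma, adjusted p = 0.292). In no other probe set was either of these unadjusted values under 0.05.

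Markers of cell types were set beside the rhythms by the means of each list at the 6 times. The basal keratinocyte list moved by 0.08 in young and 0.13 in aged mice between its lowest and highest time. The T cell list moved by 0.44 and 0.67 and was highest at ZT4 at both ages, as was the red blood cell list, which moved by 0.30 and 0.61. The bulge list moved by 0.24 and 0.52 and was highest at ZT8 in young and at ZT0 in aged mice. The suprabasal list moved by 0.28 and 0.17 and was highest at ZT12 in young and at ZT0 in aged mice. The 5 lists used as covariates were those of suprabasal keratinocytes, bulge, fibroblasts, Langerhans and myeloid cells, and T cells. The basal keratinocyte and red blood cell lists were not among them. With the scores of these 5 marker lists as covariates, the amplitudes were 0.64 and 0.33 for Npas2 and 0.37 and 0.80 for Arntl (main probe sets, young and aged). The same rhythms passed as without them (limma, adjusted p = 1.05e-10 and 0.00260 for Npas2, 0.278 and 0.0106 for Arntl).

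Deviations of each mouse from its group mean show whether the activators moved together beyond the time of day. Pearson's r and Spearman's rho were computed over 48 mice for 17 pairs, with 100000 permutations within groups and Benjamini-Hochberg adjustment over the 17. Arntl and Npas2 had r = 0.37 and rho = 0.33 (permutation test, adjusted p = 0.0664 and 0.126), Arntl and Clock r = 0.18 and rho = 0.04 (0.428 and 0.919), and Clock and Npas2 r = 0.02 and rho = 0.01 (0.930 and 0.987). No pair of activators passed.

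Dbp, an E-box target of the activators, went against both Arntl and Clock between mice. For Arntl and Dbp r was -0.48 and rho -0.45 (permutation test, adjusted p = 0.00799 and 0.0166), and r was -0.46 without the 2 mice farthest from the median of Arntl. For Clock and Dbp r was -0.45 and rho -0.45 (adjusted p = 0.00799 and 0.0125), and r was -0.33 without the 2 farthest mice. Npas2 and Dbp had r = -0.35 and rho = -0.28 (0.0959 and 0.157). With the repressor Per2 no activator passed, the strongest being Clock with r = -0.32 and rho = -0.35 (0.0664 and 0.0592). Small differences in harvest time within a group were not recorded in the labels, and their part in these values was not tested.

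Probe sets of the same gene agreed to differing degrees between mice. Clock 1435775_PM_at and 1418660_PM_at had r = 0.62 and rho = 0.53 (permutation test, adjusted p = 0.00408 and 0.0125), and r = 0.50 without the 2 farthest mice. Clock 1439314_PM_at had r = 0.50 and 0.39 with those probe sets (0.0147 and 0.0320), with rho = 0.50 and 0.47 and, without the 2 farthest mice, r = 0.46 and 0.30. The main Clock probe set passed with none of the other 3 (r from 0.31 to 0.44, adjusted p from 0.0588 to 0.125). Between the Arntl probe sets r was 0.44 (rho = 0.30, adjusted p = 0.0664 and 0.150), and it was 0.28 without mouse 1 of aged ZT12 and mouse 3 of young ZT0. Between the Npas2 probe sets r was 0.34 (rho = 0.29, adjusted p = 0.112 and 0.157).

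The likeness of daily pattern was measured as Pearson's r over the 12 group means after each age was centred on its own mean, as a description with no test. The activators had r = 0.60 (Arntl and Clock), 0.52 (Arntl and Npas2) and 0.69 (Clock and Npas2). Most like Npas2 were Ttc9 (r = 0.97), Fam234b (0.95), Prr13 (0.95), Pkia, an inhibitor of protein kinase A (0.94), and Leo1, a subunit of the PAF1 transcription elongation complex (0.94). The 3 genes most opposed to Npas2 were Dbp (-0.93), Tef (-0.93) and Ciart (-0.92), all of them clock genes. Most like Arntl were Syne3 (0.91), Gabre (0.88), Baz2b (0.87), Lrrtm2 (0.85) and Kif24 (0.85), and most opposed were Cdipt (-0.97), Rnf113a1 (-0.95) and Tpst1 (-0.94). Most like Clock were Lrrfip2 (0.91), Atp1b1, a subunit of the sodium pump (0.90), Daam1 (0.88), Atp6v0a2 (0.86) and Tada2b (0.85), and most opposed were Nkpd1 (-0.94), Itpr3 (-0.92) and Pcyox1 (-0.91). All points share the same 48 arrays. These genes are the extremes of a search over 12823 genes, and a high r does not mean a large rhythm. Fitted amplitudes in young and aged mice were 0.04 and 0.10 for Syne3, 0.06 and 0.06 for Gabre and 0.12 and 0.15 for Baz2b. They were 0.08 and 0.49 for Lrrtm2 and 0.21 and 0.29 for Kif24, against medians of 0.09 and 0.08 over all genes. Ttc9 had 1.44 and 0.94.

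Among the other core clock genes, 15 of 17 had a probe set with a single symbol and 13 were tested. In young mice 8 of the 13 were rhythmic, in aged mice 8, and 7 in both (0.811% of all genes in both). The median of their amplitudes was 0.73 (young) and 0.64 (aged). Those rhythmic at both ages were Ciart, Cry1, Dbp, Nr1d2, Per2, Per3 and Tef, with Per1 in young and Cry2 in aged mice besides. Cry1, a repressor with RORE and E-box control, came nearest to the activators, at ZT18.84 ± 0.59 and ZT17.74 ± 0.67, and the REV-ERB gene Nr1d2 peaked at ZT9.91 ± 0.26 and ZT9.94 ± 0.33. In level, 3 of the 13 were higher and 1 was lower in aged mice, against 9.89% and 8.73% of all genes. Those higher were Per2 by 0.41, Bhlhe40 by 0.22 and Rora by 0.15, and the lower one was Nfil3 with -0.27 (limma, adjusted p = 0.000632, 0.0248, 0.0438 and 0.000984).

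Of the relatives of the activators in the bHLH-PAS family, 9 of 12 were tested, with a median amplitude of 0.09 (young) and 0.05 (aged). Rhythm passed in 2 in young and in 1 in aged mice, against 6.27% and 1.36% of all genes. Arntl2, which encodes BMAL2, had an amplitude of 0.32 ± 0.09 and a peak at ZT1.58 in young mice (limma, adjusted p = 0.0408), and 0.24 ± 0.09 in aged mice (adjusted p = 0.339). Epas1, which encodes the hypoxia factor HIF2A, was rhythmic at both ages (amplitude 0.34 and 0.33; limma, adjusted p = 0.00374 and 0.0156). Its fitted peaks lay at ZT13.08 ± 0.78 in young and ZT6.92 ± 0.81 in aged mice. The cosine test of the difference did not pass for Epas1 (limma, adjusted p = 0.131), and with time as a factor the age by time term did (adjusted p = 0.0224; 2.59% of genes passed). Ahr, the dioxin receptor, was lower in aged mice by -0.25 ± 0.05 (limma, adjusted p = 0.000331).

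Among kinases and ubiquitin ligases of clock proteins, 12 of 15 were tested and none was rhythmic at either age (limma, adjusted p under 0.05), nor at unadjusted p under 0.05. For this list and the cofactors below, the share of all genes that were rhythmic was 6.27% in young and 1.36% in aged mice. Usp2, a deubiquitinase of clock proteins, was 1.90 times higher in aged mice (0.92 ± 0.14 in log2; limma, adjusted p = 3.73e-06). Among cofactors of the activators and of the RORE repressors, 12 of 16 were tested, with a median amplitude of 0.05 and 0.11. Cipc, which encodes an inhibitor that binds CLOCK, was the rhythmic one at both ages, with 0.44 ± 0.05 and 0.24 ± 0.05 (limma, adjusted p = 5.02e-08 and 0.00992). It peaked at ZT12.69 ± 0.42 and ZT12.92 ± 0.77, near ZT12, where the main probe set of each activator had its lowest mean. Its level was higher by 0.17 in aged mice (limma, adjusted p = 0.0101). Kat2b, a histone acetyltransferase, was also higher, by 0.20 (limma, adjusted p = 0.0447). These were 2 of the 12 cofactors tested, and 9.89% of all genes were higher in aged mice.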

How the data were processed

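Each of the 48 arrays measured RNA of epidermal stem cells from 1 group of age and time. Per the labels, 25 ng of TRizol-extracted RNA were amplified in 17 cycles. The authors deposited log2 values per probe set from RMA, per the submitters' processing notes, which adjusts background, aligns array distributions and summarises probes; whether the ages were normalised together is not given in the sources used here and would bear on levels. Precision is limited by the number of arrays. Values were used as deposited.

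Of 45141 probe sets, 28898 had exactly 1 symbol, 551 several and 15692 none or no entry in the probe table. Per gene the probe set of highest mean was taken, and the lowest 25% of 17097 genes (mean under 3.96) were left out, leaving 12823. limma 3.58.1 in R 4.3.3 fitted age means and a 24 h cosine and sine per age; other fits were a mean per group and an added 12 h component. All probe sets were fitted likewise without a filter. P-values were adjusted by Benjamini-Hochberg, threshold 0.05. Fits were tested on simulated data. The members and lists were chosen with earlier results of these data known. The text names all member probe sets, members of the clock lists and, per main probe set, the 5 genes of highest and 3 of lowest correlation over group means, passing over clone names. Nr1d1 had no probe set with a single symbol and is not analysed here.

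GEO's labels number the mice 1 to 4 in each group. The mean residual correlation was -0.000737 between arrays of the same number and 0.000912 otherwise, so no pairing was used. The labels state separate mice per group. Alternatives covered filters, probe set choice, normalisation, array weights, eBayes settings, the replicate block, marker scores as covariates, fits per age, the shape of the course and each array left out in turn. Promoter windows are RefSeq's on GRCm38.p6.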

Additional observations from a re-analysis of the deposited data

Results flagged for a closer look

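In 5 of 96 groups of 4 mice, 1 mouse lay farther from the other 3 than Dixon's test at 95% allows; chance flags about 1 in 20 groups. Mouse 3 of aged ZT0 read 9.89 in Arntl 1457740_PM_at, against 8.68 to 8.83 in the others. Mouse 1 of aged ZT12 read 5.74 in Arntl 1425099_PM_a_at, against 7.28 to 7.53. Mouse 1 of young ZT4 read 5.93 in Clock 1418659_PM_at, against 6.68 to 6.80, and mouse 1 of aged ZT16 read 6.83, against 6.73 to 6.74. Mouse 2 of young ZT0 read 8.07 in Npas2 1421036_PM_at, against 7.56 to 7.62. Of these arrays, mouse 1 of aged ZT12, mouse 1 of young ZT4 and mouse 2 of young ZT0 were among the 4 of lowest weight.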

How the results depend on the processing

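Of 14 main results for the activators and the core clock list, 11 were counted as keeping direction and side of the threshold in all alternatives run. The 11 include the counts of rhythmic core clock genes, which have no threshold to cross, so they could not fail. Over the alternatives these counts ran from 8 to 9 in young and from 7 to 10 in aged mice. The Arntl level, aged minus young, passed in none and changed sign in 8 of 60, with values from -0.02316 to 0.09889. The rhythm of Arntl in young mice passed with the mean of its probe sets (limma, adjusted p = 0.001996). The Clock level, aged minus young, passed in 5 of 60 alternatives: with array weights (0.1518; limma, adjusted p = 0.0325), without the 4 lowest-weighted arrays (0.1628, an alternative chosen after seeing the data) and without 1 array in 3 cases; over all arrays left out in turn it ran from 0.132 to 0.1956. With the mean of all Clock probe sets it was 0.06058 (adjusted p = 0.4506). The cause of these changes was not tested. With the replicate number as a block, the Clock level was 0.17 (limma, adjusted p = 0.0758) and the aged Arntl rhythm had an adjusted p of 0.0194; the block changed no call. The aged Arntl rhythm kept adjusted p from 0.00309 to 0.0450, the aged Npas2 rhythm from 2.41e-08 to 0.00260 and the young Npas2 rhythm from 1.37e-12 to 3.82e-07. Cyclic loess between arrays ended the ZT12 minus ZT0 call of Clock in young mice (-0.50, adjusted p = 0.0996) and the ZT16 minus ZT4 call of Npas2 (-0.32, 0.132), and Arntl's ZT16 minus ZT4 difference in young mice passed without mouse 2 of ZT4 (1.03, 0.0464).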
